A study of Mus musculus with 9 samples.

Results

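The 43 genes described here are mouse genes known to be imprinted, or to be nested in or beside an imprinted gene, outside the Kcnq1 domain, and they fall into 21 clusters of 1 to 5 genes. They were chosen by name: every row of the PLAGL1 and H3K4me3 peak tables whose gene name was in the list was taken, and every KLF4 site that overlapped such a peak or lay within 10000 bp of it. The rule gave 3 of 3463 PLAGL1 peaks, 49 of 16251 H3K4me3 peaks and 24 of 21130 KLF4 sites. The list was not built from measured values of these files, but it was drawn up with earlier results of these data known.

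An imprinted gene is expressed mainly from the allele inherited from the mother or mainly from that inherited from the father. The choice is set by DNA methylation laid down in the egg or the sperm at a control region, which the zinc-finger proteins ZFP57 and ZFP445 help to keep methylated in the embryo. Imprinted genes lie in clusters that often pair protein-coding genes with a long non-coding RNA, and many act on growth, with paternally expressed Igf2 promoting it and maternally expressed Igf2r and Grb10 restraining it. Plagl1, also called Zac1, is a paternally expressed member that encodes a zinc-finger transcription factor. In mouse it is known to regulate other imprinted genes, the so-called imprinted gene network. H3K4me3 is a histone mark of active and poised promoters, and KLF4 is a Krüppel-like factor that binds GC-rich and CACCC motifs.

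CUT&Tag, in which an antibody directs a transposase to cut and tag the DNA near its target, was run on periosteal progenitor cells, bone-surface cells taken here from the mandibular angle of 8-week-old mice. Before the assay all cells spent 3 days under osteogenic induction (ascorbic acid at 50 µg/ml, dexamethasone at 1e-07 M and β-glycerophosphate at 5 mM), and 100000 cells went into each library. FLAG-tagged KLF4 was profiled in 3 libraries of Ctsk-iCre;Plagl1fl/fl cells, called Plagl1-deficient here, and in 3 libraries of Plagl1fl/fl cells without Cre, which served as controls. In Plagl1fl/fl cells, HA-tagged PLAGL1 was profiled in 1 library and an IgG reaction on the same kind of cells in 1 library, and H3K4me3 was profiled in 1 library.

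Both tagged factors came from overexpression lentivirus at a multiplicity of 10, so the peaks describe added protein, and the H3K4me3 cells carried no virus by their treatment label. The Cre is driven by Ctsk, so deletion is limited to cells that have expressed Ctsk, and no file holds a value from which the loss of Plagl1 could be checked. In the treatment labels the vector of each KLF4-FLAG library has its own number, Klf4 to Klf9, whereas the titles of all 6 name KLF4, and grouping followed the titles. No label ties a replicate to an animal of its own, so the p-values reflect the variation among these libraries, which may be no more than technical. PLAGL1, IgG and H3K4me3 have 1 library each and therefore no replicate check. None of the files separates the maternal from the paternal allele.

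The sequences below are the 250 bases before the start site of 4 genes whose upstream stretch carried the mark along its whole length, a choice that leaves out promoters marked only in part or not at all. At Plagl1 and Igf2r the stretch lay inside an H3K4me3 peak and no KLF4 site touched it. At Ube3a and Inpp5f the stretch lay inside both an H3K4me3 peak and a KLF4 site. The sequences are those of RefSeq on GRCm38.p6, 5′ to 3′ on the strand of the gene: Plagl1 at chr10:13090582-13090831 (+), Igf2r at chr17:12769707-12769956 (-), Ube3a at chr7:59228500-59228749 (+) and Inpp5f at chr7:128611115-128611364 (+). The peaks are on mm39, so the match between stretch and peak was made by distance from the start site of the authors' annotation and assumes that both annotations start at the same base. Capitals mark a match to GGGGCGGGG, a GC box of the KLF and SP type, at Igf2r and Ube3a. At Plagl1 they mark GCGGCA, the reverse strand of TGCCGC, the motif of ZFP57, and Inpp5f holds none of the motifs searched.
Plagl1: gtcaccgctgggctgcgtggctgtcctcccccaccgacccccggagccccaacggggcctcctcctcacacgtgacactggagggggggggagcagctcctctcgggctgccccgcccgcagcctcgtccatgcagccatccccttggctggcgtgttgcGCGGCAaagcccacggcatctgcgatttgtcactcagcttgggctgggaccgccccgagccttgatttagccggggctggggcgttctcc
Igf2r: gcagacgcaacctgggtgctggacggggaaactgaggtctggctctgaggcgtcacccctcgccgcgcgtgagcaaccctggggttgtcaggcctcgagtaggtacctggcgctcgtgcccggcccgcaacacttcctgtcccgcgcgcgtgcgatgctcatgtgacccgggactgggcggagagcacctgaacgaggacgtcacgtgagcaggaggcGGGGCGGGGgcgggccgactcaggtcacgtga
Ube3a: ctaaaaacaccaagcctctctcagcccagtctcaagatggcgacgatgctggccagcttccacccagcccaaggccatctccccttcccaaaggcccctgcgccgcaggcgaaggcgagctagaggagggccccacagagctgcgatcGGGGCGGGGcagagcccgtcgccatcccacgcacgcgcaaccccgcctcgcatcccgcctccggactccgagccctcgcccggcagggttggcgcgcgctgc
Inpp5f: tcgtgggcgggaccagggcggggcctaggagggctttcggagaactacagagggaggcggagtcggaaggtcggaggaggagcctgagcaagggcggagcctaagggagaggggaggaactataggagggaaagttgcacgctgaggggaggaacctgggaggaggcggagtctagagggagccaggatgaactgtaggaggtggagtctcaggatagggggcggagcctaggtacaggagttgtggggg

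Motifs were searched on both strands in the 250 bases before 52 start sites of 34 members that RefSeq lists, and in 32851 such windows of all genes. TGCCGC stood in 9 of 52 member windows (17.3%) and in 8.68% of all windows. GGGGCCCC, the palindrome known for ZAC1, stood in 3 of 52 member windows (5.77%), against 0.889% of all windows. The 3 were windows of Ppp1r9a, Peg3 and Rasgrf1, and no PLAGL1 peak bore the name of any of them. The KLF-type letters GGGGCGGGG stood in 4 member windows (7.69%), against 10.4% of all, and GGGTGTGG, a CACCC box, in 2 member windows (3.85%), against 3.20% of all. The member windows held a median of 10 CpG dinucleotides, against 6 over all windows, and a median GC content of 55.8%, against 52.4%. Several windows belong to 1 gene or overlap, so these shares describe the windows and are no test. A match of letters is not a bound site.

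Most imprinted genes carried H3K4me3 at a start site, but the peaks were weak for this library. Under their own names, 30 of the 43 genes had a peak within 3000 bp of a transcription start site (TSS). Among the 35 protein-coding members the count was 26 (74.3%), against 51.3% of the 21896 protein-coding genes in RefSeq. The peak score is the authors' own value from their caller, a whole number from 20 upwards, and ranks peaks within the list only. The highest score at a start site had a median of 352 over the 30 marked members, against 831 over all 12151 marked genes. Of the 30 members, 7 lay above that overall median and 23 at or below it. Peaks at member start sites had a median width of 1145 bp, against 1287 bp for all start-site peaks, and in 26 of the 30 the strongest peak spanned the TSS.

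The 10 highest members came from 10 different clusters, and 4 of them, H13, Trappc9, Blcap and Commd1, hold another imprinted gene within them. Inpp5f, an inositol phosphatase gene, led with a score of 1853, rank 135 of all H3K4me3 peaks (mm39 chr7:128212766-128213910). Ube3a, the ubiquitin ligase gene of Angelman syndrome, had 1512 (chr7:58877908-58879625, rank 887) and H13, which encodes a signal peptide peptidase, had 1409 (chr2:152511375-152513720, rank 1380). Trappc9, a vesicle-tethering subunit, had 1202 (chr15:72932110-72933336) and Blcap 1170 (chr2:157406885-157408932). Commd1, a regulator of copper handling, had 1053 (chr11:22931504-22932587) and Copg2, a coatomer subunit, had 1019 (chr6:30872794-30873882). Those 7 are the members above the overall median. Ppp1r9a, which encodes the actin-binding protein neurabin, followed with 755 (chr6:4902775-4904260), Gnas, the stimulatory G protein alpha subunit, with 733 (chr2:174171114-174173095), and Airn, the non-coding RNA that silences Igf2r on the paternal allele, with 532 (chr17:12960161-12961788).

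**Figure D1:**
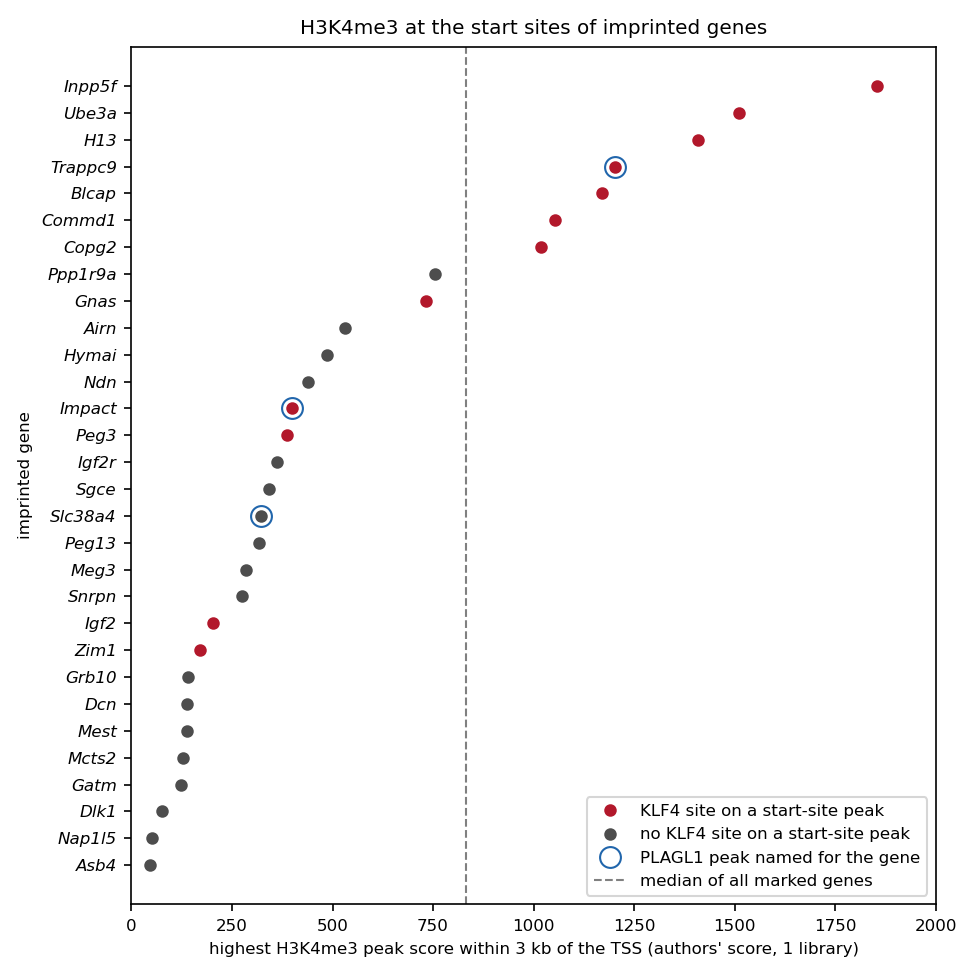
Each row is 1 of the 30 imprinted genes with an H3K4me3 peak of its own name within 3 kb of a TSS, and the horizontal axis gives the highest peak score there, the authors' value from 1 library. Red points have a KLF4 site on any of the gene's peaks within 3 kb of a TSS, which at Igf2 is not the plotted peak. Open circles mark a PLAGL1 peak named for the gene at any distance. The dashed line at 831 is the median over all marked genes, with 7 members to its right.

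The Plagl1 locus carried the mark, although no peak bears the name of the gene. The peak at chr10:12966079-12967719 had a score of 487, rank 9152, and bears the name of Hymai, a non-coding RNA whose start site lies so close to that of Plagl1 that 287 of the 300 bases of their RefSeq promoter windows are shared. It lay 310 bp downstream of the Hymai TSS by its centre. No PLAGL1 peak and no KLF4 site lay on it. The nearest KLF4 site was 81675 bp away (chr10:12884046-12884404), and in the authors' deposited table its log2 fold change was 0.10 with a 95% interval of -0.57 to 0.76 (adjusted p = 0.98, edgeR). The nearest PLAGL1 peak was 211562 bp away, at chr10:12754394-12754517, with a score of 50 and the name of Utrn, the gene of utrophin.

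A further 5 members carried the mark under the name of a neighbour. Usp29, a deubiquitinase gene, shares 263 of 300 promoter bases with Peg3 on the opposite strand, and the Peg3 peak scored 386. The start site of Peg10, a retrotransposon-derived gene, lies in the Sgce peak of 342. Nespas, the antisense RNA of the Gnas locus, was named Gnasas1 and had a peak of 395 at chr2:174136301-174137530. H19, a maternally expressed growth-limiting RNA, was covered by a peak of 78 at chr7:142130180-142131800 that was named for Mir675, the microRNA within it. Zrsr1, a splicing-factor retrogene inside Commd1, lay under Commd1-named peaks of 750 and 315. That left 7 of the 43 genes with no peak: Rtl1, Rian, Mirg, Magel2, Slc22a3, Rasgrf1 and Nnat.

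In the Igf2, Igf2r, Dlk1-Meg3, Grb10, Mest and Dcn clusters the scores were as follows. Igf2, the fetal growth factor, had peaks of 202 and 42 at its start sites, and Igf2r, the receptor that clears it, had 362. In the Dlk1-Meg3 cluster, Meg3, a maternally expressed RNA, had 284 and Dlk1, a Notch-related inhibitor of differentiation, had 76 and 61, while Rtl1, Rian and Mirg had none. Grb10, an adaptor that restrains growth-factor receptors, had 3 small peaks of 79, 92 and 141, all annotated to its intron 1. That of 141 also spanned the TSS. Mest, a paternally expressed hydrolase-like gene, had 138, against 1019 for Copg2, its maternally expressed neighbour. Dcn, which encodes the matrix proteoglycan decorin, had 139 and 60.

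The other clusters were marked unevenly. In the Prader-Willi and Angelman region Ube3a had 1512, Ndn, the growth suppressor necdin, 440 and Snrpn, a spliceosome gene, 274, while Magel2 had no peak. In the Peg3 cluster the zinc-finger gene Peg3 had 386 and Zim1 170 and 50. Around Peg10, Ppp1r9a had 755, Sgce, epsilon-sarcoglycan, 342 and Asb4, a SOCS-box gene, 46. Of the genes that stand alone, Impact, an inhibitor of GCN2 activation, had 399, Slc38a4, an amino acid transporter, 322, Gatm, an enzyme of creatine synthesis, 124 and Nap1l5, a nucleosome assembly family gene, 50. Gnas had peaks of its own name within 3000 bp of 3 of its alternative start sites, with scores of 49, 69 and 733. Only the peak of 733, at the start of the transcripts that encode the G protein, spanned the start site.

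Away from start sites, 8 H3K4me3 peaks were named for members, and all were weak, with scores from 39 to 172. The strongest lay 73256 bp upstream of a Snrpn TSS in a LINE element (172) and 6512 bp upstream of Trappc9 in a CpG island (159). The other 6 scored 64 upstream of Dlk1, 60 at a SINE element upstream of Igf2r, 51 and 41 around Asb4, 51 at Slc38a4 and 39 at Mcts2. At Inpp5f, a second start-site peak of 51 marked an internal promoter (chr7:128289754-128290115), against 1853 at the main promoter.

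Imprinted genes that lie inside another gene had a lower H3K4me3 score than the strongest start-site peak of the host in each of 5 such pairs. The pairs were picked after the values were seen and were not tested. Airn, which overlaps Igf2r only in part and was not among the pairs, went the other way, with 532, against 362 for Igf2r. Mcts2, a retrogene inside H13, had 129, against 1409 for H13. Zrsr1 had 750, against 1053 for Commd1, but the peak of 750 also lies at the start of another Commd1 transcript, so this pair does not separate nested gene from host. Peg13, a non-coding RNA inside Trappc9, had 316, against 1202 for Trappc9, and Nnat, neuronatin, had no peak, against 1170 for Blcap. Nap1l5 had 50, against 380 for Herc3, a host that is not among the 43 genes. A KLF4 site lay on no start-site peak of the 4 nested genes that had one, and on the host peak in 5 of 5. Over all start-site peaks, KLF4 lay on 29.4% of those scoring 20 to 342, where Mcts2, Peg13 and Nap1l5 fell. It lay on 62.3% of those from 343 to 790, which held Herc3 and the strongest Zrsr1 peak. Among peaks from 791 to 1141 (Commd1) and from 1142 upwards (H13, Trappc9, Blcap) it lay on 78.7% and 88.4%. Whether nesting adds anything to the score was not tested.

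By the parental allele that mouse studies report as expressed, 23 members are paternal, 16 maternal and 4 (Gnas, Inpp5f, Blcap and H13) differ by transcript. These classes are background knowledge assigned after the values were seen. Whether each member is imprinted in these cells, and which allele carried the mark or KLF4, was not measured. The values below therefore describe the gene and not an allele. Of the paternal genes 14 were marked under their own name, with a median score of 319 (50 to 532), and of the maternal genes 12, with a median of 323 (46 to 1512). These counts leave out the members marked under another name. Those are the paternal Plagl1, Usp29, Nespas, Peg10 and Zrsr1 and the maternal H19, so the counts by class depend on how peaks were named. All 4 genes that differ by transcript were marked, from 733 to 1853. KLF4 lay on start-site peaks of 3 of the 14 marked paternal genes, 5 of the 12 marked maternal genes and 4 of 4 of those that differ by transcript.

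KLF4 sites lay on the start-site peaks of members with high H3K4me3 scores and rarely on the weak ones. The share with KLF4 also rose with score over all start-site peaks. A KLF4 site overlapped a start-site peak by at least 1 bp in 12 of the 26 marked protein-coding members (46.2%), against 68.5% of all marked protein-coding genes. The 12 genes were Inpp5f, Ube3a, H13, Trappc9, Blcap, Commd1, Copg2, Gnas, Impact, Peg3, Igf2 and Zim1, which include all 7 members above the overall median score. At Igf2 the site lay on the peak of 42 and not on that of 202. With start-site peaks sorted by score into 4 groups of nearly equal size, KLF4 lay on 2 of 25 member peaks (8%) in the lowest group, from 20 to 342, against 29.4% of all peaks there. In the next group, up to 790, the count was 3 of 9 (33.3%), against 62.3%. In the upper groups it was 2 of 2, against 78.7%, and 5 of 5, against 88.4%. The shares describe 1 H3K4me3 library and 1 consensus list, and no test was made of their difference.

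**Figure D2:**
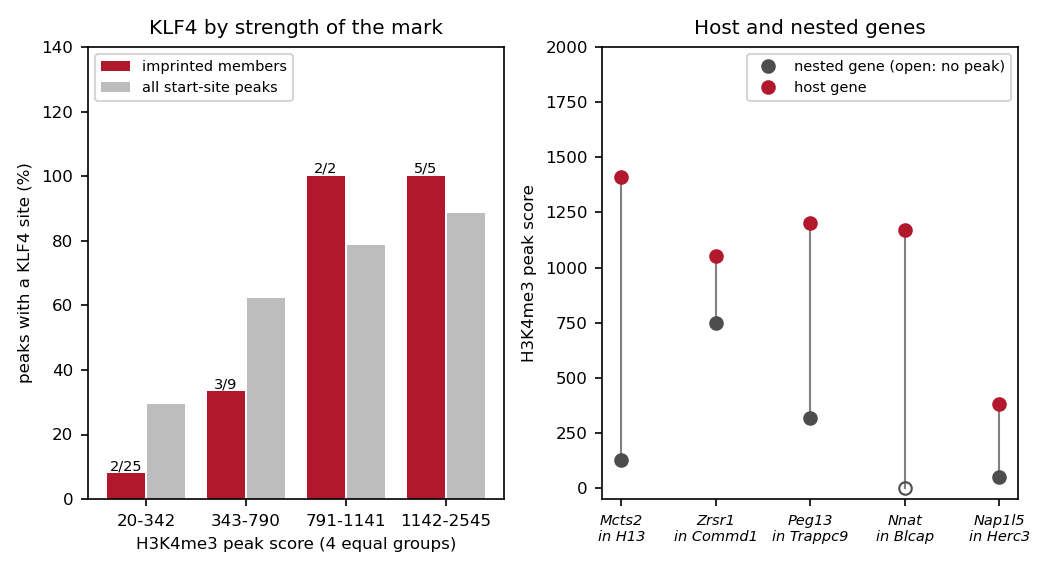
The left panel gives the percentage of start-site H3K4me3 peaks that overlap a KLF4 site, in 4 groups of the authors' peak score, for imprinted members (red, with counts) and all start-site peaks (grey). The right panel gives the highest H3K4me3 score of 5 nested genes (grey, the open point for Nnat standing for no peak) and of their hosts (red), where the host point is the upper one in every pair.

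The KLF4 sites did not all sit at the same place in the promoter. By its centre, the site lay 5 bp from the TSS at Ube3a, 22 bp at Zim1, -66 bp at Copg2, 79 bp at Inpp5f, -152 bp at Blcap, 222 bp at Commd1 and 300 bp at Gnas, where minus means upstream, and it covered the TSS in all 7. At Peg3 the centre lay 1770 bp and at H13 2114 bp downstream, and the site did not reach the TSS. No KLF4 site touched the fully marked upstream stretches of Mcts2, Mest, Ppp1r9a and the strongest Igf2 start, as at Plagl1 and Igf2r in the sequences above.

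PLAGL1 peaks were named for few of the imprinted genes, at any distance a share close to that of all protein-coding genes. A PLAGL1 peak lay within 3000 bp of a TSS in 1 of the 35 protein-coding members, against 5.82% of all protein-coding genes. At any distance a peak bore the name of 3 members (8.57%), against 9.82% of all. Of the 3 peaks, that of Trappc9 (57) scored above the median of 40 over all PLAGL1 peaks, and those of Impact (33) and Slc38a4 (22) scored below it. H3K4me3 lay on 2 of the 3, against 48.7% of all PLAGL1 peaks, and the same 2 also carried KLF4, as did 44.0% of all PLAGL1 peaks.

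The promoter peak was at Impact, whose product limits the GCN2 stress kinase. It lay at chr18:13106583-13107017 with a score of 33, rank 2065 of the PLAGL1 list, and its centre was 717 bp upstream of an annotated TSS. It lay within the H3K4me3 peak of score 399 (chr18:13105328-13107565) and within the KLF4 site at chr18:13105987-13107606. In the authors' deposited table that KLF4 site had a mean log2 CPM of 6.97, rank 1165 of all sites, and a log2 fold change of 0.07 (95% interval -0.12 to 0.26, adjusted p = 0.95 by edgeR).

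The strongest of the 3 lay upstream of Trappc9, the host of the imprinted RNA Peg13. This peak, at chr15:72939302-72939473, had a score of 57 (rank 769) and lay 6334 bp upstream of the TSS. It fell inside the weak H3K4me3 peak of 159 at chr15:72939223-72939908 and inside a KLF4 site at chr15:72939244-72940037. In the authors' deposited table the KLF4 site there had a mean log2 CPM of 7.05 (rank 1030), against 6.52 for the site on the Trappc9 promoter. The H3K4me3 scores stood the other way, with 159 at the upstream element and 1202 at the promoter. A further PLAGL1 peak, of score 22, lay 22602 bp away at the start of Chrac1, a subunit gene of the chromatin accessibility complex.

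The third peak was named for Slc38a4 from 77095 bp away. It lay at chr15:96841048-96841242 with a score of 22, rank 2916, near the lowest score in the list, 20. It fell in an RLTR17B_Mm long terminal repeat, a retroviral element, and overlapped neither H3K4me3 nor KLF4. The nearest H3K4me3 peak named for Slc38a4, the distal one of score 51, was 6337 bp away, and the peak at the Slc38a4 start site (322) was 110823 bp away.

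**Figure D3:**
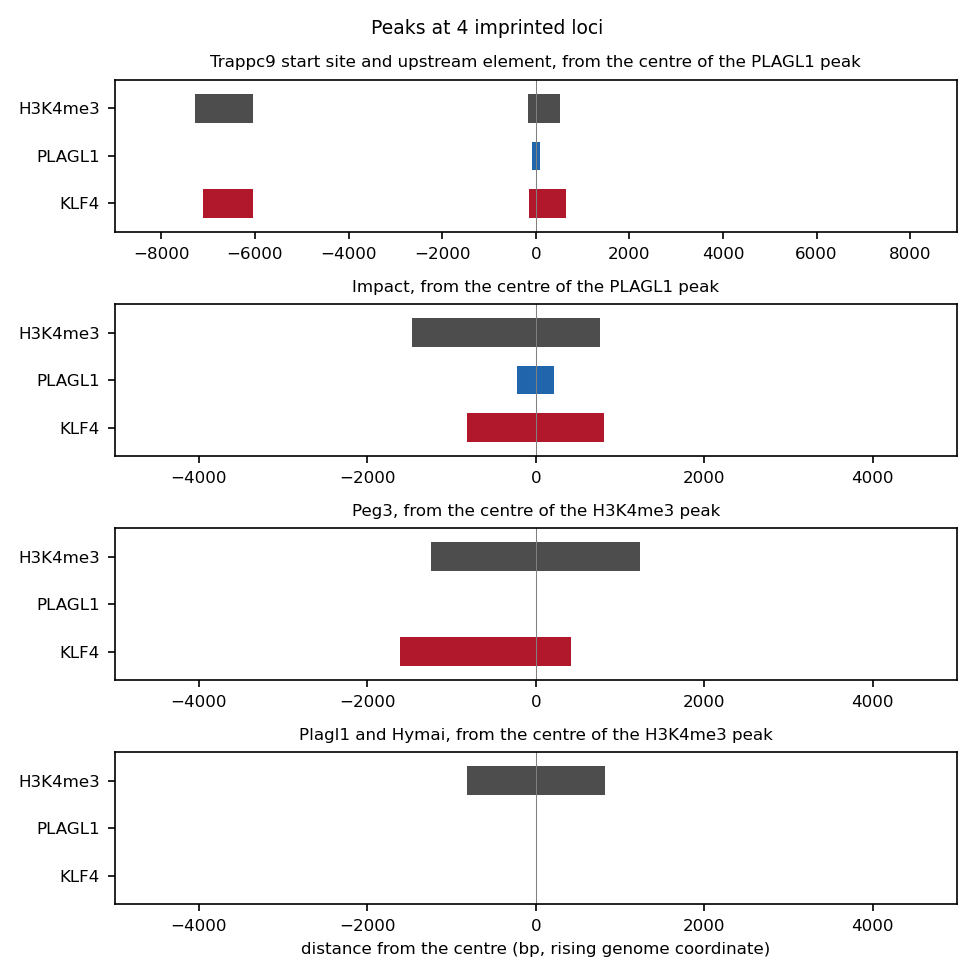
Each panel gives, in bp along the chromosome, the peaks of H3K4me3 (grey), PLAGL1 (blue) and KLF4 (red) around the PLAGL1 peak upstream of Trappc9, the PLAGL1 peak of Impact and the H3K4me3 peaks of Peg3 and Hymai with Plagl1. PLAGL1 lies inside both other peaks in the upper 2 panels, KLF4 without PLAGL1 is at Peg3, and the Plagl1 locus has H3K4me3 alone.

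Measured from the member H3K4me3 peaks, 7 of the 20 clusters that had any lay within 100000 bp of a PLAGL1 peak, which gave 10 PLAGL1 peaks in all, and 13 did not. The Rasgrf1 cluster had no peak to measure from. Over the 20 clusters the median distance to the nearest PLAGL1 peak was 141200 bp. Beside the peaks at Impact, Trappc9, Slc38a4 and Chrac1, 3 lay at Id1, a target gene of BMP signalling, 32579 bp, 39035 bp and 40835 bp from the nearest peak of the Mcts2 cluster, with scores of 39, 89 and 40. The start of Pdk4 (score 40) lay 52758 bp from an Asb4 peak, a Bag3 peak (33) 79765 bp from Inpp5f and an Nctc1 peak (30) 95244 bp from Igf2. H3K4me3 peaks that mark a member under another name were not used for these distances. The Nctc1 peak (chr7:142114545-142114715) lay nearer to H19, whose peak at chr7:142130180-142131800 is named for Mir675, than to Igf2. The nearest PLAGL1 peak was 106080 bp from the Airn peak and 132961 bp from the Igf2r start-site peak, 107531 bp from Gnas and 120373 bp from Dcn. It was 162026 bp from Copg2 and 296768 bp from Mest, 321195 bp from Grb10 and 359180 bp from the Dlk1-Meg3 cluster. It was 1562035 bp away from the Snrpn cluster. By gene, the strongest start-site peak lay a median of 248749 bp from a PLAGL1 peak in the 30 marked members, against 139310 bp over all marked genes, and a median of 6264 bp from a KLF4 site, against 0 bp over all.

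**Figure D4:**
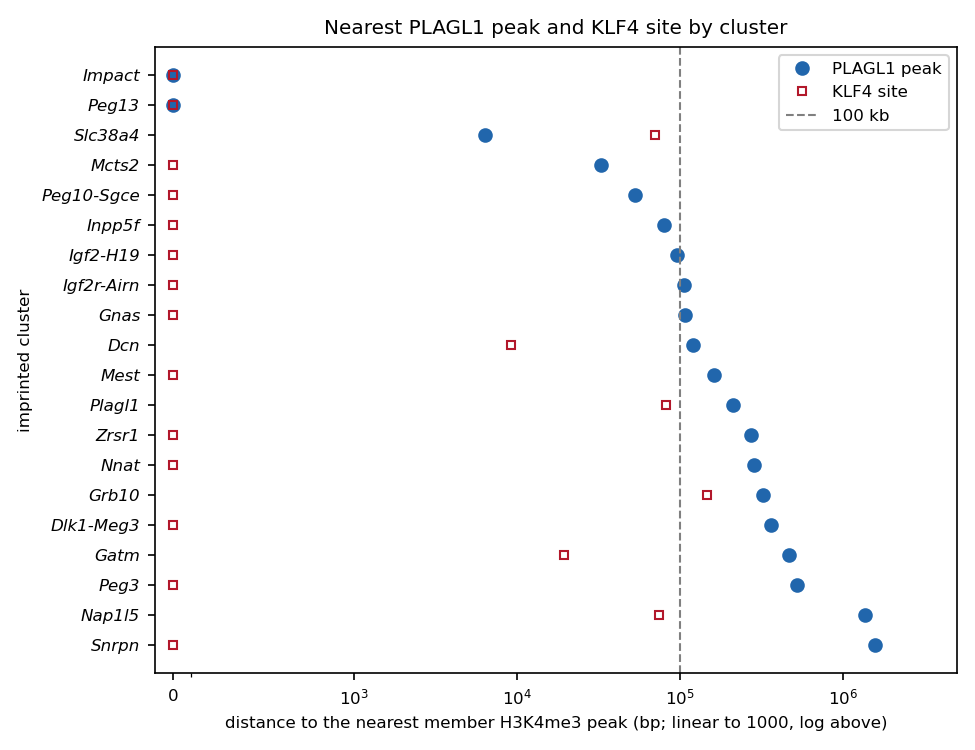
Each row is 1 of the 20 imprinted clusters with a peak, and the horizontal axis gives the distance in bp (linear to 1000, logarithmic above) from its member H3K4me3 peaks to the nearest PLAGL1 peak (filled circles) and the nearest KLF4 site (open squares). Peaks that mark a member under another name, such as that of H19, were not used. Only Impact and Peg13 with Trappc9 have a PLAGL1 peak at 0, and 13 clusters lie beyond the dashed line at 100 kb.

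The comparison of Plagl1-deficient with control cells asked whether KLF4 binding changes when Plagl1 is deleted, and no linked site was called. The authors' deposited table gives 1 log2 fold change per site and no value per library, and it does not name the numerator, so the sign of a change is given without naming the higher group. At an adjusted p under 0.05 by edgeR, 0 of the 24 linked sites were called, against 0.0473% of all sites, 10 of 21130, in the authors' deposited table. In the authors' deposited table an unadjusted p under 0.05 was held by 2 of the 24 (8.33%), against 6.46% of all. The lowest adjusted p of a linked site in the authors' deposited table was 0.61.

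In the authors' deposited table, the log2 fold change was negative at 14 of the 24 sites (58.3%), against 49.7% over all sites. Their median in the authors' deposited table was -0.05 (range -0.34 to 0.89), against 0.0013 over all sites, and 19 of the 24 lay within 0.2 of 0. The median standard error worked out from the authors' deposited table was 0.186, against 0.189 over all sites. The linked sites were of ordinary strength, with a median of 5.07 mean log2 CPM in the authors' deposited table, against 5.08 over all sites.

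The sites with an unadjusted p under 0.05 both lay off the H3K4me3 peaks and had positive signs. The site 9182 bp from the Dcn peaks, at chr10:97326711-97327087, had a log2 fold change of 0.53 (95% interval 0.15 to 0.91, p = 0.0068, adjusted p = 0.61 by edgeR) in the authors' deposited table. The site 1087 bp from the Mest peak, at chr6:30740227-30740554, had 0.89 (0.19 to 1.60, p = 0.014, adjusted p = 0.70 by edgeR) in the authors' deposited table. The Mest site was weak, with a mean log2 CPM of 3.75, rank 20152 of 21130 in the authors' deposited table. The 95% intervals were derived from the F value and p of each row.

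The strongest linked sites were measured most tightly and had intervals that contained 0. Peg3 had the strongest of the 24 linked KLF4 sites (chr7:6730633-6732662), with a mean log2 CPM of 7.42, rank 534, and a log2 fold change of -0.10 (95% interval -0.28 to 0.09, adjusted p = 0.91 by edgeR) in the authors' deposited table. Inpp5f followed in the authors' deposited table with 7.20, rank 809, and a log2 fold change of 0.06 (-0.12 to 0.25, adjusted p = 0.95 by edgeR). The element upstream of Trappc9, which also carried PLAGL1, had a log2 fold change of 0.14 (-0.05 to 0.33, adjusted p = 0.85 by edgeR) in the authors' deposited table. Gnas (chr2:174171283-174172918) had a mean log2 CPM of 6.91, rank 1299, and a log2 fold change of -0.17 (-0.37 to 0.02, adjusted p = 0.81 by edgeR) in the authors' deposited table. Together with the Impact site, these intervals lay between -0.37 and 0.33.

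**Figure D5:**
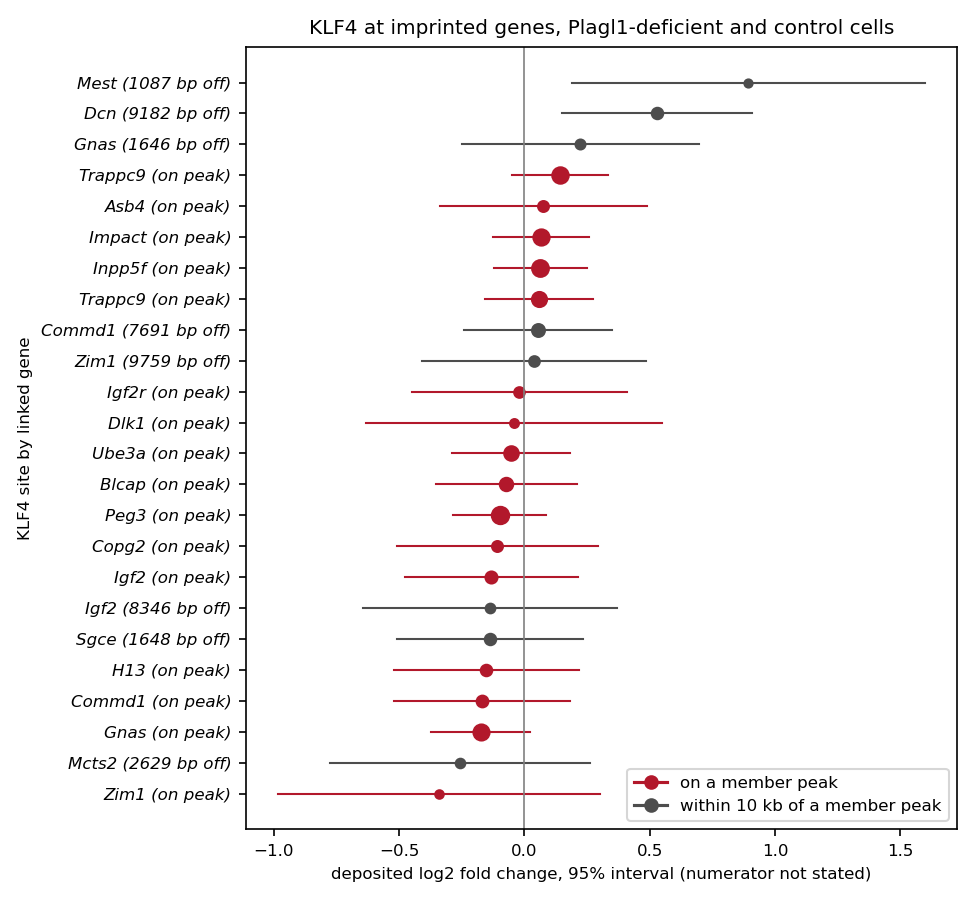
Each row is 1 of the 24 KLF4 sites linked to an imprinted gene, and the horizontal axis gives the log2 fold change between Plagl1-deficient and control cells in the authors' deposited table (3 libraries each, numerator not stated) with its 95% interval as a line. Points grow with the mean log2 CPM, red sites overlap a member peak and grey sites lie within 10 kb of one, and only the intervals of the Mest and Dcn sites leave out 0.

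The remaining linked sites covered 0 with their intervals as well. On promoters, in the authors' deposited table, the log2 fold change was -0.05 at Ube3a, 0.06 at Trappc9, -0.07 at Blcap, -0.11 at Copg2, -0.13 at Igf2, -0.15 at H13, -0.17 at Commd1 and -0.34 at Zim1. The distal sites on member peaks had -0.04 at Dlk1, -0.02 at Igf2r and 0.08 at Asb4 in the authors' deposited table. Off the member peaks it was -0.26 near Mcts2, -0.14 near Sgce and Igf2, 0.04 near Zim1, 0.05 near Commd1 and 0.22 near Gnas in the authors' deposited table. The sites near Commd1 and Gnas did lie on H3K4me3 peaks, but on ones that do not bear the name of a member. No KLF4 site was linked to 24 of the 43 genes, and 6 of the 21 clusters had none: Plagl1, Grb10, Slc38a4, Nap1l5, Rasgrf1 and Gatm.

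In the wider neighbourhood, 75 KLF4 sites lay within 100000 bp of a member H3K4me3 peak. None was called by edgeR in the authors' deposited table. An unadjusted p under 0.05 was held by 9 of the 75 (12%), against 6.46% over all sites, and a negative sign by 38, against 49.7% over all sites in the authors' deposited table. The lowest adjusted p among them in the authors' deposited table was 0.29, at chr18:13080137-13081358, 23970 bp from the Impact peak and on an H3K4me3 peak named for Osbpl1a, an oxysterol-binding protein gene. Its log2 fold change in the authors' deposited table was 0.41 (95% interval 0.20 to 0.63, unadjusted p = 0.00029 by edgeR). A strong KLF4 site between the Airn and Igf2r start-site peaks (chr17:12973737-12975128), 11914 bp from the nearest member peak, had a mean log2 CPM of 7.19, rank 824, and a log2 fold change of 0.07 in the authors' deposited table. These neighbourhood sites were singled out after their values were seen.

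The counts of other lists stand beside 51.3% of all protein-coding genes marked, 68.5% of the marked ones with KLF4 on the mark and 9.82% named by a PLAGL1 peak. Among genes whose proteins set or keep imprints, 14 of 15 had an H3K4me3 peak at a start site, led by Dnmt1 (1472), Ezh2 (1357), Smchd1 (1196) and Zfp445 (1163), and Dppa3 had none. Only Ctcf, the insulator protein gene, had a PLAGL1 peak near its TSS among them, with a score of 36, and KLF4 lay on the mark of 10 of the 14. Of the PLAG family, Plagl2 was marked (1190) with KLF4 on the peak, and Plag1 had no peak. Of 36 other genes in or beside imprinted clusters, 19 were marked, 10 carried KLF4 on the mark and 3 had a PLAGL1 peak named for them, Chrac1, Bcl2l1 and Begain. Of 22 growth and matrix genes that include 7 of the 43 imprinted ones, 21 were marked under their own name, led by Col6a2 (1103), Cdkn1a (1012), Igf1r (940) and Sparc (840). KLF4 lay on the mark of 8 of the 21. A PLAGL1 peak was named for 8 of the 22, none of them among the 43 genes. The PLAGL1 peaks within 3000 bp of a TSS were those of Cdkn1a, the p21 cell cycle inhibitor (score 46), Fn1, fibronectin (50), and Col6a1, collagen VI (39).

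As a check of the cells, 13 of 14 periosteal progenitor markers carried H3K4me3, against 51.3% of all protein-coding genes. Their scores ran from 182 at Gli1 to 1609 at Itgav, with Pdgfrb (898), Pdgfra (818) and Ctsk (578) between, and Lepr had none. Macrophage and osteoclast markers carried it in 9 of 10 genes, with scores from 35 to 768 and the highest at Cd14, and Acp5 had none. The score ranges of these markers and of the progenitor markers overlapped. Endothelial markers carried it in 3 of 6 genes, nerve markers in 3 of 8 and skeletal muscle markers in 0 of 7. The part of macrophages in the member peaks was not tested. H3K4me3 from a mixture of cells cannot tell a weak mark in all cells from a strong one in a few. Reads per library are not given in the sources used here.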

How the data were processed

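CUT&Tag was profiled in 9 libraries from mouse periosteal progenitor cells: 3 of KLF4-FLAG in Plagl1-deficient and 3 in control cells, and 1 each of PLAGL1-HA, IgG and H3K4me3, grouped by their titles. The submitters' processing notes name, without saying what each did, MACS3 3.0.2, HOMER 4.11.1, edgeR 4.2.0, Bowtie2 2.5.4, DiffBind 3.16.0, Trim Galore 0.6.10, deepTools 3.5.5, SAMtools 1.21 and GATK 4.5.5.0, and the mm39 build. The sources used here do not give the handling of duplicates or the scaling of libraries. Scaling sets where 0 lies for each KLF4 site. Peak scores, distances and gene names were used as deposited by the authors, and a score ranks peaks within its own list only. PLAGL1 peaks were called on HA against IgG, per the file name. For KLF4 the authors deposited 1 row per consensus site, which holds the p-value, its adjusted value, the F score, the mean signal as log2 CPM and the log2 fold change. The files hold 0 columns of values from other samples and no counts per library, so calls were taken from the deposited adjusted values under 0.05 in place of a new fit.

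With scipy 1.17.1, numpy 2.4.6 and pandas 2.3.3 under Python 3.11.15, and matplotlib 3.10.9 for plots, peaks were matched by gene name, overlaps of at least 1 bp were taken and distances were measured. The standard error was the size of the log2 fold change over the square root of F, and 95% intervals used degrees of freedom solved from F and p (median 87.6). The recomputed Benjamini-Hochberg adjustment over all 21130 sites gave the deposited one, and the steps were tested on simulated data. Of the 43 symbols 42 were found in RefSeq GRCm38.p6, used for names, neighbours and promoter sequences.

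The members and lists were chosen with earlier results of these data known. Values in full are given for members with a PLAGL1 peak, the 10 highest H3K4me3 scores, linked KLF4 sites with an unadjusted p under 0.05, the 5 of highest mean signal and the Plagl1 locus. For the other members the scores are given by cluster, and the host pairs, parental classes and neighbourhood sites were added after the values were seen. The alternatives were the distance and overlap limits, score minimums, p thresholds and the sites over which p was adjusted.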

Additional observations from a re-analysis of the deposited data

How the results depend on the processing

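Of 29 alternative settings, 21 left the result within 1.5 times its value, where a count of 0 that stayed at 0 was taken as unchanged. With H3K4me3 peaks limited to scores at or above the list median, 9 of the 43 genes were marked in place of 30. Members named by a PLAGL1 peak numbered 3, and 1 with a score at or above the list median and 1 within 3000 bp of a TSS. Counting every PLAGL1 peak within 100000 bp, added after the data were seen, gave 7 clusters. PLAGL1 peaks on H3K4me3 numbered 2, and 1 with the score minimum. Linked KLF4 sites numbered 24, and 50 within 50000 bp. Sites past the threshold numbered 0, and 2 at an unadjusted p under 0.05 by edgeR in the authors' deposited table. Negative signs numbered 14 of 24, and 6 of 11 among sites at or above the median signal. No paired analysis was possible because the authors' deposited table holds no values per library, and leaving out a replicate could not be run for that reason. Depth is unknown, so sites missed for lack of reads cannot be told from sites without binding.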
